A study of Mus musculus with 16 samples.

Results

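The genes described here are 9 members of the EGF receptor (ErbB) family and its ligands, of 53333 genes in the deposited table. The receptors are Egfr, Erbb2 and Erbb3, and the ligands are Areg, Ereg, Hbegf, Tgfa, Btc and Nrg1. They were found by matching Ensembl gene identifiers to symbols, and all 9 were found and passed the filter on low counts. The members were chosen by their gene-level counts in these same libraries, in which they differed between lines and clones, so their gene-level differences are a description and carry no test of their own. The cells were mHiPPoE-2, a transformed neuron line from mouse hippocampus of the strain Crl:CFW(SW)-024, kept in serum-containing medium without treatment. RNA from 16 libraries was sequenced after removal of ribosomal RNA, 2 libraries for each of 8 groups, in a study of how RBM45, a protein that binds N6-methyladenosine (m6A) in RNA, acts on pre-mRNA.

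The edited lines were METTL3 KO, which is 1 isogenic clonal isolate made with Cas9 and a guide against the gene of the m6A methyltransferase, and RBM45 KO clones 1 and 2, made with Cas9 and a guide against Rbm45. KO rescue clones 1 and 2 were RBM45 KO cells that also carried tagged RBM45, labelled F-HA-tagged RBM45_mut[delta]gRNA. They were set against control clones 1 and 2, which received Cas9 without a guide RNA, and against unedited cells (WT). The clone numbers of the control and rescue clones and the library numbers are names only. A clone is the unit that was edited. Comparisons that use libraries as replicates therefore compare lines and clones and not genotypes, and only the 2 clones per genotype bear on RBM45.

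ErbB receptors are tyrosine kinases at the cell surface that pair with each other when a ligand binds. Egfr binds Areg, Ereg, Hbegf, Tgfa and Btc, Erbb3 binds the neuregulin Nrg1 and has little kinase activity of its own, and Erbb2 has no known ligand and serves as the shared partner. The ligands are made as membrane-anchored precursors that proteases of the ADAM family release. The receptors signal through the Ras-ERK and PI3K-AKT cascades, and ERK signalling is known to induce several of the ligand genes and a set of feedback inhibitors. In the hippocampus, neuregulin signalling is best known at synapses, and Hbegf and Tgfa are known growth factors for neural progenitors.

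Promoters of 5 of the 9 genes (Areg, Btc, Tgfa, Egfr and Erbb2) were matched among the RefSeq promoter sequences of GRCm38.p6. The promoters of Areg and Egfr are shown, because these genes were called lower in the control clones than in WT. Each runs from 250 bases before the start of transcription to 50 bases after it, 5′ to 3′ on the plus strand. Capitals mark a cyclic AMP response element (TGACGTCA), a TATA box (TATAAA) or a GC box (GGGCGG, or CCGCCC on the other strand).
Areg (chr5:91139349-91139648): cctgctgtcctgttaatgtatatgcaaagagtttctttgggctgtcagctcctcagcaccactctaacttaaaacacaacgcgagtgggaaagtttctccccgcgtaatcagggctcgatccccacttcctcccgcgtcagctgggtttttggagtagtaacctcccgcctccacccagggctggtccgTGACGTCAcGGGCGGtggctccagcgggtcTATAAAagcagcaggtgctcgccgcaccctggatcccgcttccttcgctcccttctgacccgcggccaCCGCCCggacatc
Egfr (chr11:16751953-16752252): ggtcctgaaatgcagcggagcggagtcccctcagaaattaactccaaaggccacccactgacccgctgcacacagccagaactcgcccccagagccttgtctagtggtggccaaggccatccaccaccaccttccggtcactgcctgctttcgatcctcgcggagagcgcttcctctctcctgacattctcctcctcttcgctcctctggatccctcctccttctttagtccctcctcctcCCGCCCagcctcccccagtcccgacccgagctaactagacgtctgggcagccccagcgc
In the Areg promoter the cyclic AMP response element began at −61 and the TATA box at −31. In the Egfr promoter a GC box at −9 was the match found. Of the 32851 promoters of the same length, searched on both strands, 1.79% held TGACGTCA, 13.6% held TATAAA and 35.7% held GGGCGG. The AP-1 letters TGANTCA were in 7.81% of them and in 0 of the 5 matched here. A match is a run of letters and not a measured site. GC content was 59.3% in the Areg window and 62.3% in the Egfr window, against a median of 52.7% over all promoters. No 2 of the motifs overlapped in these windows.

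Gene-table totals were 7193908 to 18751324 counts per library, of which 12 genes took 53.26% to 70.62%, so that 2580543 to 7167022 counts remained for all other genes. Levels are CPM, counts relative to a library size scaled by TMM, over the whole gene body with introns. Mettl3 averaged 3.528 ± 0.2543 CPM in METTL3 KO, 9.288 ± 0.929 in the controls (n = 4) and 10.21 ± 2.027 in WT (SD, n = 2 for METTL3 KO and WT). Rbm45 averaged 8.033 ± 2.076 CPM in RBM45 KO, 23.13 ± 2.045 in KO rescue and 14.7 ± 1.897 in the controls (SD, n = 4 libraries each). Markers of mature neurons were largely absent. Of 10 neuron markers, Map2 (84.02 CPM on average) and Tubb3 (1.328 CPM) were above 1 CPM, while Stmn2 and Nefl had 0 counts in all 16 libraries. Markers known from neural progenitors (Nes, 245.2 CPM; Sox2, 33.01 CPM; Pax6, 17.91 CPM) and from mesenchymal cells (Fn1, 1354 CPM; Vim, 966.2 CPM; Col1a1, 398.7 CPM) were high. Epithelial markers, which mark the cells in which ErbB signalling is most studied, summed to 0.4965 CPM or less in every library. In bulk RNA, fewer cells of a type and less RNA per cell cannot be told apart.

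Per length of annotated exon, Hbegf had the highest mean of the 9 genes and Btc the lowest. Mean exon CPM per kb over the 16 libraries was 17.3 for Hbegf, 6.92 for Nrg1, 4.699 for Erbb2, 2.898 for Areg, 1.153 for Egfr, 0.687 for Ereg, 0.6544 for Tgfa, 0.3622 for Erbb3 and 0.2522 for Btc. The order is of means and not of separate ranges, since the ranges of all 8 neighbouring pairs overlapped. Nrg1 was above Erbb2 in all 16 libraries and Hbegf above Nrg1 in 14, the other 2 being those of METTL3 KO. Areg was above Egfr in 7 of 16 libraries and Ereg above Tgfa in 6, so these neighbours had no fixed order. Among the receptors the order was Erbb2, Egfr, Erbb3. Reads also fell in introns: the exon bins held 56.9 counts per 100 gene counts for Nrg1, whose gene body spans 1070 kb, and 73.66 for Egfr, whose gene body spans 166 kb. For Erbb2, with a gene body of 25.25 kb, there were 164.6 exon-bin counts per 100, since a fragment over 2 bins counts in each. Lengths are of all annotated exon bins, 15433 bases for Nrg1 and 5210 for Erbb2. The order between genes therefore also depends on the annotation and on how exons are split into bins, and is not an order of transcript numbers.

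**Figure D1:**
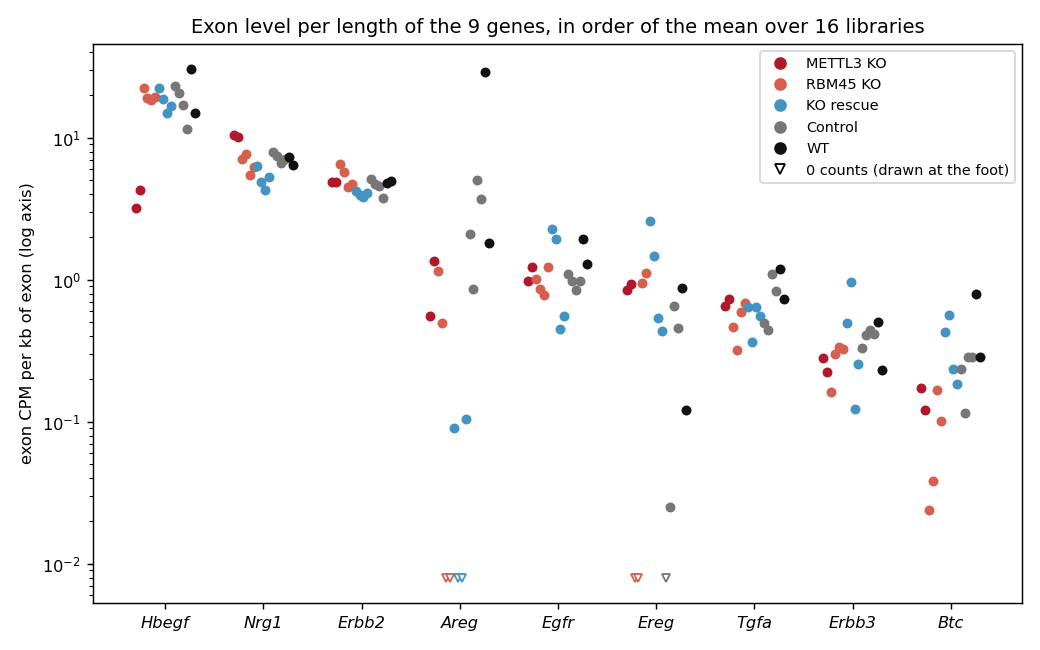
Exon level per length (exon CPM per kb of exon, log axis) of the 9 genes, ordered by their mean over the 16 libraries, with a point for each library. Hbegf has the highest mean at 17.3 and Btc the lowest at 0.2522. Libraries with 0 counts, for Areg (4 libraries) and Ereg (3 libraries), are open triangles drawn at the foot of the axis and not measured levels.

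Of the receptors, Erbb2 was the most even gene of the set, and Egfr differed widely between the KO rescue clones. Erbb2, the shared signalling partner (chromosome 11, 98412470 to 98437716, GRCm38), had 15.39 and 15.1 CPM in METTL3 KO, 19.98 and 17.4 in RBM45 KO clone 1, 14.49 and 15.3 in clone 2, 13.5 and 13.72 in KO rescue clone 1 and 12.86 and 13.96 in clone 2. The references held 15.25 and 14.34 in control clone 1, 13.8 and 12.48 in control clone 2 and 14.66 and 15.26 in WT. The libraries of RBM45 KO clone 1 were the highest, and all other libraries lay between 12.48 and 15.39 CPM. On the other strand Erbb2 overlaps Gm25048 and Mien1, Tgfa overlaps Gm43917 and Nrg1 overlaps Gm22140. Erbb3 overlaps Mir6917 on its own strand. How many reads these genes add was not measured. Egfr and Ereg overlap antisense genes described with them.

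Egfr (chromosome 11, 16752203 to 16918158) had 20.67 and 20.03 CPM in METTL3 KO, 14.39 and 13.78 in RBM45 KO clone 1, 13.57 and 16.96 in clone 2, 36.04 and 29.18 in KO rescue clone 1 and 9.443 and 8.965 in clone 2. It had 14 and 13.93 CPM in control clone 1, 10.23 and 14.65 in control clone 2 and 27.31 and 20.85 in WT. The highest and the lowest libraries both belonged to KO rescue clones, rescue clone 1 and rescue clone 2. WT lay above every control and RBM45 KO library. Egfr overlaps Egfros on the other strand, which had 5.42 counts per 100 Egfr counts, and the kit does not mark strand.

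Erbb3, the neuregulin receptor (chromosome 10, 128567523 to 128589652), was the least abundant receptor, with 8 to 48 counts per library. It had 1.124 and 0.7306 CPM in METTL3 KO, 0.8594 and 1.034 in RBM45 KO clone 1, 1.34 and 1.515 in clone 2, 1.818 and 3.806 in KO rescue clone 1 and 0.6027 and 1.089 in clone 2. It had 1.556 and 1.773 in control clone 1, 1.688 and 1.628 in control clone 2 and 1.725 and 1.097 in WT. All 4 RBM45 KO libraries lay below all 4 control libraries, and the rescue libraries spread over both.

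**Figure D2:**
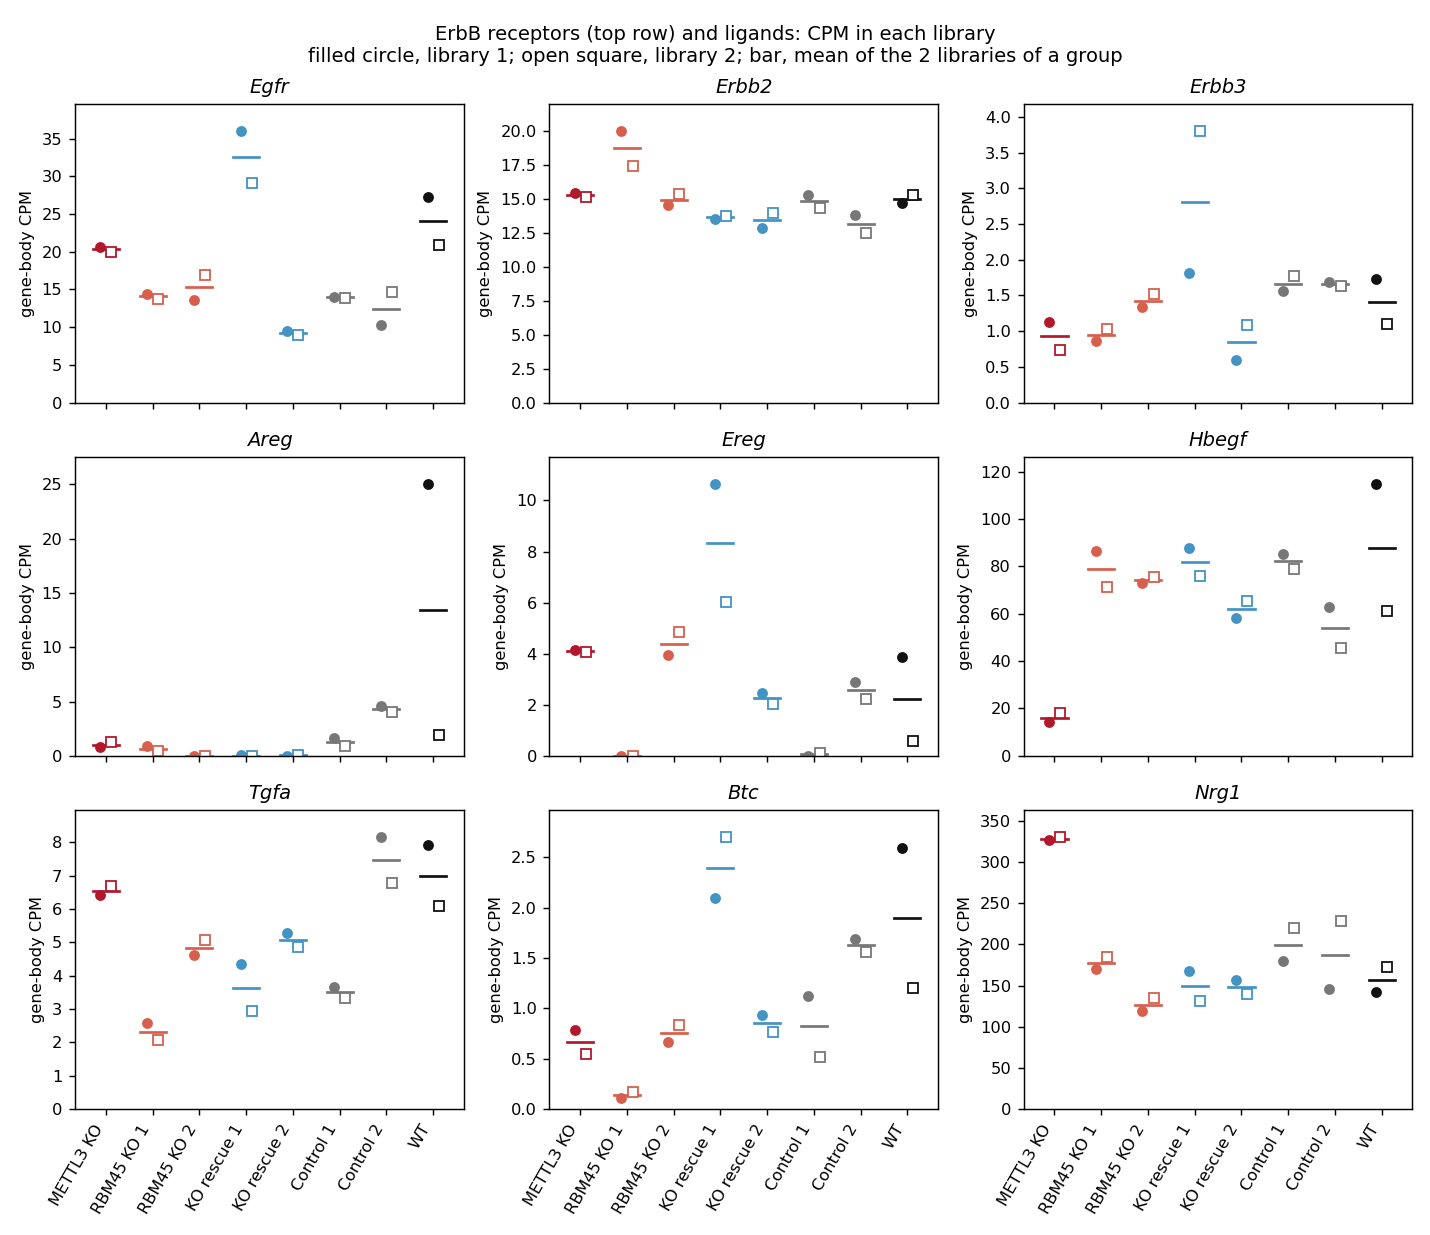
Gene-body CPM of the 3 receptors (top row) and the 6 ligands in each library, with the groups METTL3 KO, RBM45 KO, KO rescue, control and WT along the axis. Filled circles are library 1, open squares library 2 and bars the mean of the 2 libraries, and each axis starts at 0; Hbegf is at 14.27 and 17.96 CPM in METTL3 KO and at 45.64 CPM or more elsewhere.

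Of the ligands, Hbegf and Nrg1 stood apart in METTL3 KO from every other library. Hbegf, the heparin-binding EGF-like factor (chromosome 18, 36504927 to 36515805), had 14.27 and 17.96 CPM in METTL3 KO, 86.26 and 71.16 in RBM45 KO clone 1, 72.88 and 75.58 in clone 2, 87.78 and 75.88 in KO rescue clone 1 and 58.26 and 65.51 in clone 2. It had 85.19 and 78.97 in control clone 1, 62.66 and 45.64 in control clone 2 and 114.7 and 60.95 in WT. Both METTL3 KO libraries were below the other 14, and of those 14 the WT libraries held the highest value and one of the lower ones.

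Nrg1, a neuregulin that binds Erbb3 (chromosome 8, 31814551 to 32884797), had 327.3 and 330.1 CPM in METTL3 KO, 169.7 and 184.7 in RBM45 KO clone 1, 118.6 and 134.4 in clone 2, 168.1 and 131.7 in KO rescue clone 1 and 156.4 and 139.5 in clone 2. It had 179.4 and 219.7 in control clone 1, 146.1 and 228.1 in control clone 2 and 141.9 and 173.0 in WT. Both METTL3 KO libraries were above the other 14. The Nrg1 row joins 2 overlapping Ensembl genes, which cannot be parted here.

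Areg, amphiregulin, and Ereg, epiregulin, are neighbours on chromosome 5 (Areg at 91139599 to 91148432, Ereg at 91074622 to 91093646), and their levels differed in different clones. Areg had 0.7865 and 1.278 CPM in METTL3 KO, 0.8594 and 0.4307 in RBM45 KO clone 1, 0 counts in both libraries of clone 2, and 1 count or fewer in each of the 4 KO rescue libraries. It had 1.68 and 0.8867 CPM in control clone 1, 4.568 and 4.069 in control clone 2 and 25.01 and 1.895 in WT. WT library 1 held 174 of the 193 WT counts of Areg, and its level was 13.2 times that of WT library 2.

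Ereg had 4.157 and 4.079 CPM in METTL3 KO, 0 counts in both libraries of RBM45 KO clone 1, 3.937 and 4.847 CPM in clone 2, 10.64 and 6.026 in KO rescue clone 1 and 2.478 and 2.049 in clone 2. It had 0 and 2 counts in the libraries of control clone 1, 2.88 and 2.238 CPM in control clone 2 and 3.881 and 0.5985 in WT. Ereg was therefore at or near 0 in 1 clone of RBM45 KO and 1 control clone, and Areg at 0 in the RBM45 KO clone that had Ereg. Ereg overlaps Gm19610 on the other strand, whose row held 312 counts in all, against 650 for Ereg, and the reads of the pair cannot be told apart. Gm19610 had 1 count in all in the 4 libraries of RBM45 KO clone 1 and control clone 1.

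Tgfa, transforming growth factor alpha (chromosome 6, 86195223 to 86275719), had 6.405 and 6.697 CPM in METTL3 KO, 2.578 and 2.068 in RBM45 KO clone 1, 4.607 and 5.074 in clone 2, 4.353 and 2.934 in KO rescue clone 1 and 5.291 and 4.867 in clone 2. It had 3.671 and 3.338 in control clone 1, 8.143 and 6.782 in control clone 2 and 7.907 and 6.085 in WT. RBM45 KO clone 1 was lowest and control clone 2 and WT were highest. Btc, betacellulin (chromosome 5, 91357261 to 91402994), was low throughout, with 0.7865 and 0.5479 CPM in METTL3 KO, 0.1074 and 0.1723 in RBM45 KO clone 1, 0.6701 and 0.8331 in clone 2, 2.094 and 2.696 in KO rescue clone 1 and 0.9376 and 0.7684 in clone 2. It had 1.12 and 0.5216 in control clone 1, 1.688 and 1.56 in control clone 2 and 2.588 and 1.197 in WT. KO rescue clone 1 and WT library 1 held the highest levels of Btc, and the libraries of RBM45 KO clone 1, with 1 and 2 counts, the lowest.

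METTL3 KO was set against WT and against the control clones, which asks what loss of the m6A methyltransferase goes with, and the comparisons share the METTL3 KO libraries. Hbegf was lower and Nrg1 higher in METTL3 KO against both references, and with the filter on low counts these were the members called both times in the same direction. Without that filter Areg was also called lower over the controls (−1.11) and Ereg also called higher over WT (1.05). Hbegf averaged 16.11 ± 2.609 CPM in METTL3 KO, 68.12 ± 17.74 in the controls and 87.83 ± 38.02 in WT (SD, n = 2, 4 and 2), a log2 change of −2.42 (SE 0.24) over WT and −2.03 (SE 0.22) over the controls. Nrg1 averaged 328.7 ± 1.96 CPM in METTL3 KO, 193.3 ± 38.01 in the controls and 157.4 ± 21.98 in WT, a log2 change of 1.06 (SE 0.19) over WT and 0.77 (SE 0.16) over the controls. These 4 calls held under every setting tried and with each library left out in turn. The Nrg1 levels include reads in introns, and the relative difference was smaller on exons. Mean exon CPM per kb of Nrg1 was 10.35 in METTL3 KO, 7.29 in the controls and 6.851 in WT.

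Over WT, 4 of the 9 members were called at an adjusted p under 0.05 in the fit across all genes, against a background of 22.9% of 16223 genes, and over the controls 4 were called, against a background of 30.6%. The other calls over WT were Areg, with a log2 change of −3.55 (SE 0.78), and Btc, with −1.49 (SE 0.49). Areg was not called without WT library 1, where its log2 change was −0.80, and Btc was lost with DESeq2 or with any of METTL3 KO library 1, METTL3 KO library 2 or WT library 1 left out (−0.90 to −1.70). Ereg over WT, at 1.03 (SE 0.51), was not called with all libraries, was called at 2.76 without WT library 1, and was at 0.084 without WT library 2. The other calls over the controls were Egfr, at 0.62 (SE 0.15), and Ereg, at 3.33 (SE 0.55). The size of the Ereg change depends on control clone 1, whose libraries had 0 and 2 counts. Ereg had 4.157 and 4.079 CPM in METTL3 KO and 2.88 and 2.238 in control clone 2. On exon bins alone Egfr had a log2 change of 0.32 and was not called. Every METTL3 KO library was on one side of every reference library for 6 members over WT, where 62.5% of all genes were so, and for 5 members over the controls, where 40.0% were. The median log2 change of the 9 was −0.23 over WT and 0.13 over the controls, against 0.01 for all genes in both. Markers of other cell types differed between the same libraries. The 6 astrocyte markers, of which Gja1 and Slc1a3 averaged over 1 CPM and Aqp4 was at 0 in 15 of 16 libraries, summed to 38.77 and 44.93 CPM in METTL3 KO, 82.78 to 93.25 in the controls and 97.16 to 99.05 in WT. The 6 mesenchymal markers, all over 1 CPM on average, summed to 1744 and 1754 CPM in METTL3 KO, 2476 to 4090 in the controls and 2328 to 2374 in WT. Fn1 and Vim carried that lower sum, and the other 4 went the other way over WT: Col1a1 averaged 343.3 CPM in METTL3 KO and 105.0 in WT, Col3a1 25.52 and 0.9418, Col1a2 2.861 and 0.9696, and Sparc 303.1 and 230.3. The 5 neural progenitor markers, of which 3 averaged over 1 CPM, summed to 148.0 and 172.5 CPM in METTL3 KO, 252.4 to 369.4 in the controls and 302.7 to 304.2 in WT, while Pax6 alone averaged 16.15 CPM in METTL3 KO, 14.64 in the controls and 13.36 in WT. Their part in the member differences was not tested.

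The control clones were set against WT to show what cloning with Cas9 alone goes with. Egfr and Areg were lower in the controls. Egfr averaged 13.2 ± 2.008 CPM in the controls and 24.08 ± 4.572 in WT, a log2 change of −0.85 (SE 0.15), and Areg averaged 2.801 ± 1.794 and 13.45 ± 16.35 CPM, a change of −2.46 (SE 0.56). Both calls rested on WT library 1: without it Egfr was at −0.65 and not called, and Areg turned round to 0.30. These 2 called members of 9 stand beside a background of 8.97% of all genes, or 5.78% in this direction. Ereg, at −2.31 (SE 0.70), was not called, was called under 5 other settings, at −2.27 to −3.25, and was at −0.57 without WT library 1. The size of this Ereg change also depends on control clone 1, whose libraries had 0 and 2 counts. Hbegf, at −0.39 with all libraries, was called, at −0.78, without WT library 2 and was at 0.13 without WT library 1. Nrg1, at 0.30 with all libraries, was called, at 0.44, without control clone 2 library 1 and was at 0.12 without control clone 2 library 2.

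The WT libraries differed from each other in this set. WT library 1 was above WT library 2 for 7 of the 9 members, with a median ratio of 1.57, while 8016 of all 16223 genes were higher in library 1, with a median ratio of 0.995. The ratios were 13.2 for Areg, 6.49 for Ereg, 2.16 for Btc and 1.88 for Hbegf, and 0.961 for Erbb2 and 0.82 for Nrg1. The labels give no difference between these libraries, and their part in the comparisons with WT beyond the values without library 1 was not tested.

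**Figure D3:**
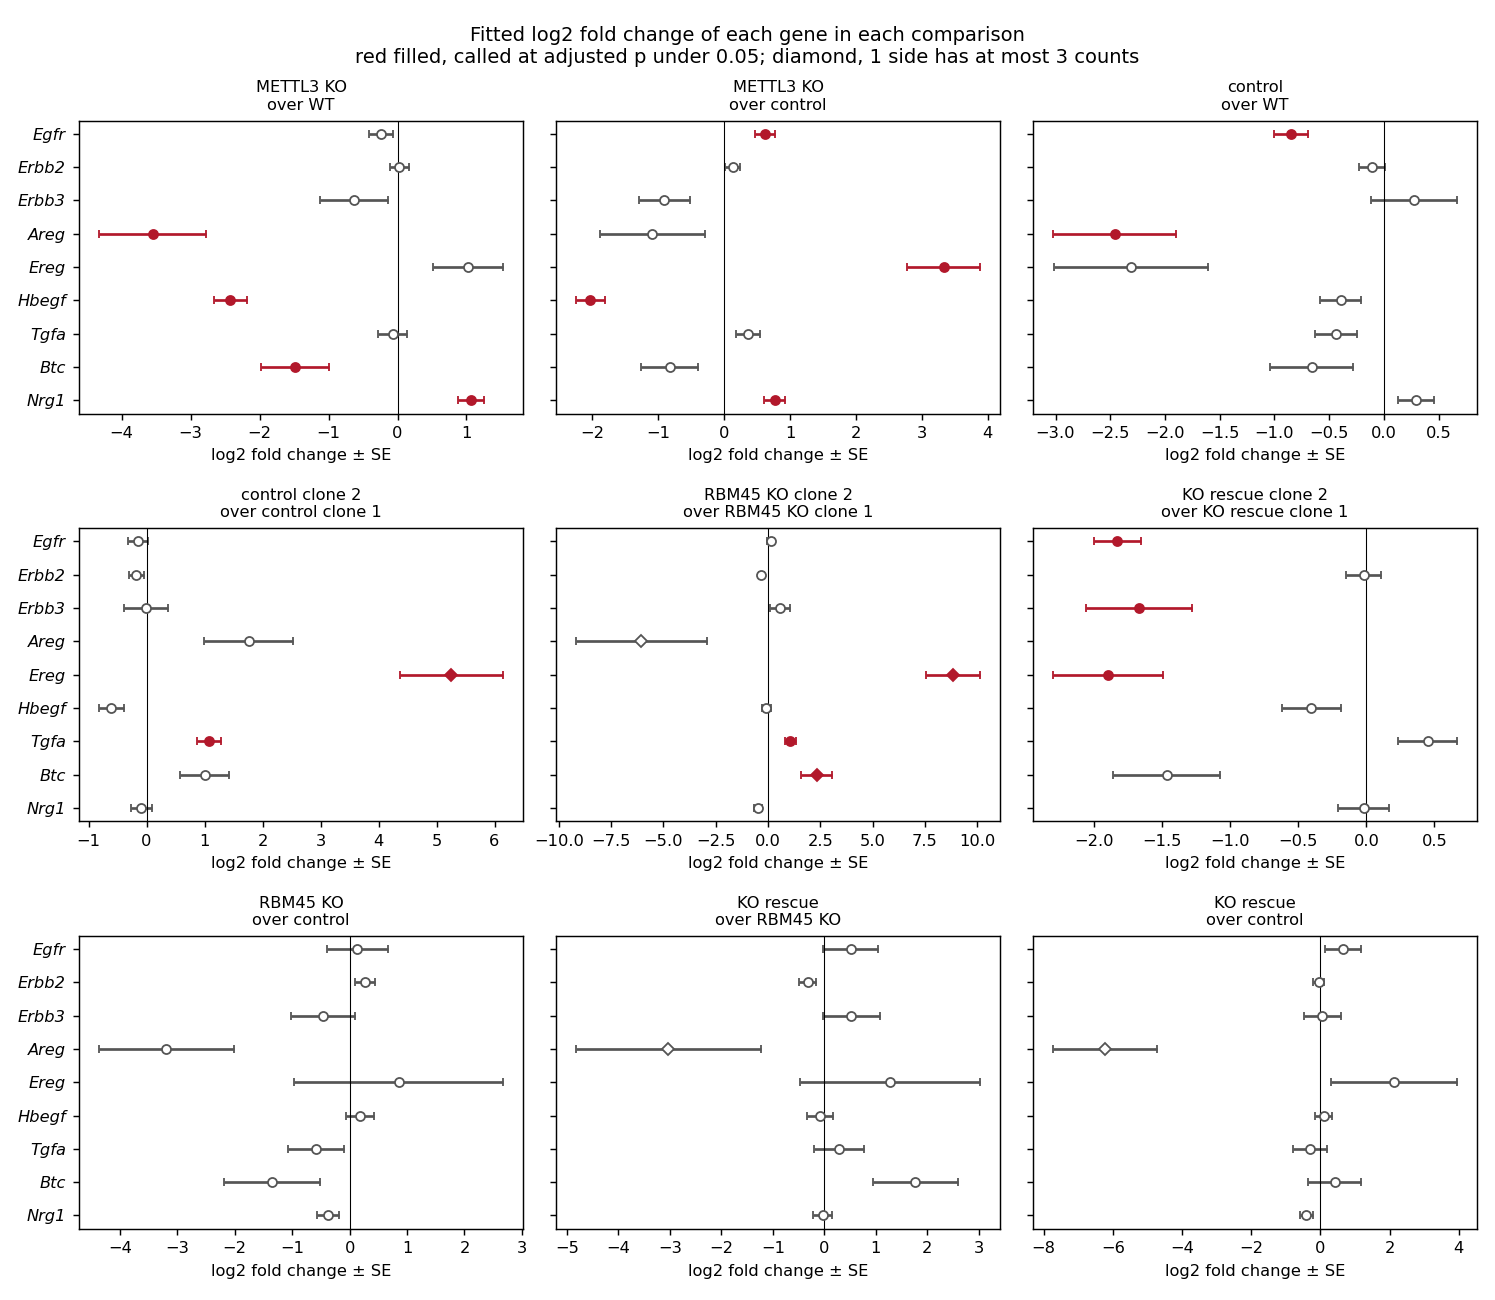
Fitted log2 fold change with its SE for each gene in each of 9 comparisons, with red filled marks for genes called at an adjusted p under 0.05 and diamonds where one side has at most 3 counts. Hbegf is at −2.42 and −2.03 and Nrg1 at 1.06 and 0.77 in METTL3 KO over WT and over the controls, while no mark is filled in the 3 comparisons between genotypes at the level of clones.

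Clones that share a genotype differed from each other, in Ereg in all 3 pairs. Ereg had 62 counts in control clone 2 and 2 in control clone 1, a ratio of CPM of 44.0 with a 95% exact counting interval of 11.7 to 372.0. In RBM45 KO it had 111 counts in clone 2 and 0 in clone 1, at least 30.8-fold higher in clone 2 with a floor of 3 counts over the clone. In KO rescue it was lower in clone 2, at a log2 change of −1.90 (SE 0.40). Intervals and floors cover counting error only, since fragments were counted without molecular identifiers.

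Tgfa was higher in clone 2 than in clone 1 of the controls, at a log2 change of 1.08 (SE 0.21), and of RBM45 KO, at 1.07 (SE 0.26). Which clone is called clone 2 is arbitrary for the controls, so the like sign carries no meaning. The RBM45 KO call for Tgfa was lost on exon bins, at 0.74, and without clone 1 library 2 (0.91) or clone 2 library 2 (1.00). Btc had 19 counts in RBM45 KO clone 2 and 3 in clone 1, a ratio of 5.27 (95% exact counting interval 1.55 to 27.8), and its call was lost with DESeq2, on exon bins and with any of the 4 libraries left out. Areg had 0 counts in RBM45 KO clone 2 and 13 in clone 1, at least 5.21-fold lower. It was not called by edgeR with the filter on low counts, and was called without that filter and with DESeq2.

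In KO rescue, clone 2 was lower than clone 1 for Egfr, at a log2 change of −1.83 (SE 0.18), for Erbb3, at −1.67 (SE 0.39), and for Ereg. Egfr averaged 9.204 ± 0.3379 CPM in clone 2 and 32.61 ± 4.85 in clone 1 (SD, n = 2 libraries each), and its call held with each library left out and under every setting tried. The Erbb3 call was lost with DESeq2 (−1.71), without clone 1 library 2 (−1.08) and without either library of clone 2 (−1.32 and −2.16). The Ereg call was lost without clone 1 library 1 (−1.41) and without either library of clone 2 (−2.04 and −1.77).

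The control clones differed in 2 called members, both higher in clone 2, beside 19.6% of all genes called (9.96% higher and 9.6% lower). The RBM45 KO clones differed in 3, all higher in clone 2, beside 14.1% (6.49% higher and 7.65% lower). The KO rescue clones differed in 3, all lower in clone 2, beside 2.29% (0.807% higher and 1.48% lower). Libraries of the clones did not overlap for 6, 7 and 6 members, beside 55.2%, 54.3% and 44.4% of all genes. Without the filter on low counts, Areg and Hbegf in the control pair, Areg and Nrg1 in the RBM45 KO pair and Btc in the rescue pair were called as well. Hbegf in the control pair was also called with DESeq2, on exon bins and without control clone 2 library 1, at −0.60 to −0.85. Btc in the control pair, at 1.00 with all libraries, was called, at 1.62, without control clone 1 library 1 and was at 0.52 without control clone 1 library 2. Markers of other cell types differed between the same clones. Col1a1 had 33.96 and 29.16 CPM in control clone 2 and 1037 and 1053 in control clone 1, and 85.69 and 68.31 in RBM45 KO clone 2 and 1416 and 1373 in RBM45 KO clone 1. Slc1a3 had 15.99 and 24.48 CPM in control clone 2 and 2.365 and 1.513 in control clone 1. Other markers of the same lists went the other way in the control pair. Col1a2, also mesenchymal, had 5.462 and 5.019 CPM in clone 2 and 2.676 and 1.773 in clone 1. Gja1, also an astrocyte marker, had 72.69 and 67.41 CPM in clone 2 and 82.45 and 80.48 in clone 1. The part of these in the member differences was not tested.

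RBM45 KO, KO rescue and control were compared with the clone as the replicate, 2 clones against 2, which asks whether loss or return of RBM45 goes with a change. No member was called in any of the 3 comparisons, and 0.0% of the 16867 genes were called by edgeR's quasi-likelihood test in each. Rbm45, the edited gene, was not called either. Its log2 change was −0.88 (SE 0.20) in RBM45 KO over control and 1.53 (SE 0.20) in KO rescue over RBM45 KO (adjusted p 0.754 and 0.662, edgeR). The test therefore cannot show that a member did not change. An unadjusted p under 0.05 was reached by 983 genes in RBM45 KO over control, 1239 in KO rescue over RBM45 KO and 2620 in KO rescue over control, and DESeq2 called 6, 49 and 460. An exact permutation of 2 clones against 2 cannot give a two-sided p below 0.3333.

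In RBM45 KO over control the member log2 changes were −3.19 (SE 1.17) for Areg, −1.36 (SE 0.84) for Btc, −0.59 (SE 0.49) for Tgfa, −0.47 (SE 0.56) for Erbb3, −0.37 (SE 0.19) for Nrg1, 0.14 (SE 0.54) for Egfr, 0.18 (SE 0.25) for Hbegf, 0.27 (SE 0.17) for Erbb2 and 0.85 (SE 1.82) for Ereg. Areg and Erbb3 were the members whose RBM45 KO libraries all lay below the control libraries, which 6.78% of all genes did in one direction or the other. Areg averaged 0.3225 ± 0.4115 CPM in RBM45 KO and 2.801 ± 1.794 in the controls (SD, n = 4 libraries of 2 clones each). Most of these changes depended on single clones. Without RBM45 KO clone 1 the fitted change was −9.33 for Areg and −0.64 for Btc, and without RBM45 KO clone 2 it was −2.13 for Areg, −3.01 for Btc, −1.23 for Tgfa and −8.14 for Ereg. Without control clone 2 it was 0.056 for Tgfa, −2.05 for Areg and 5.22 for Ereg, and Hbegf ran from −0.090 without control clone 2 to 0.55 without control clone 1. Fitted values against clones at or near 0 counts depend on the prior count of the fit.

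KO rescue over RBM45 KO had Areg at −3.03 (SE 1.80), Btc at 1.76 (SE 0.83), Ereg at 1.28 (SE 1.75) and the other 6 members between −0.33 and 0.52. Without RBM45 KO clone 1 Areg turned to 3.10, and Ereg was at 0.29 or 10.3 by the RBM45 KO clone left out. By the KO rescue clone left out, Egfr was at −0.70 or 1.17 and Erbb3 at −0.52 or 1.12. Only Erbb2 had libraries that did not overlap, lower in KO rescue at 13.51 ± 0.4726 CPM and 16.79 ± 2.453 in RBM45 KO, beside 15% of all genes. In KO rescue over control Areg had 2 counts in all against 150, a ratio of CPM of 0.0131 with a 95% exact counting interval of 0.00157 to 0.048, and every KO rescue library was below every control library, as for 23.5% of all genes in one direction or the other. Areg was thus lower than in the controls both in RBM45 KO clones and in the clones with RBM45 returned, and was not called in either comparison by edgeR. DESeq2 called Areg, at −6.41, in KO rescue over control and no other member. In the same comparison Egfr, at 0.65 with all clones, was at −0.56 without KO rescue clone 1 and 1.31 without clone 2.

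Exon bins asked whether a part of a member changed relative to the rest of its transcript, a measure that the level of the gene does not set. The bins that averaged 10 counts or more numbered 33 for Nrg1, 16 for Erbb2 (18 in the comparisons over clones) and 9 for Hbegf. Of these bins, 0 were called in any of the 9 comparisons by diffSpliceDGE of edgeR. Egfr, Ereg and Tgfa had 1 such bin each and were not tested. Over all 101929 bins tested on libraries the share called was 0.0137% in METTL3 KO over WT, 0.05% in METTL3 KO over control, 0.000981% in control over WT, 0.0245% in control clone 2 over clone 1, 0.00196% in RBM45 KO clone 2 over clone 1 and 0.000981% in KO rescue clone 2 over clone 1. Over clones it was 0.00378% in RBM45 KO over control, 0.000946% in KO rescue over RBM45 KO and 0.00568% in KO rescue over control. The Nrg1 difference ran along the gene: 32 of 33 bins were higher in METTL3 KO than in WT, and 31 of 33 were higher than in both control clones. All 9 Hbegf bins were lower in METTL3 KO than in WT and than in both control clones. For Erbb2, 7 bins were higher and 9 lower than in WT.

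The last bin of Nrg1 (chromosome 8, 31814551 to 31817142), which lies in the 3' untranslated region of 1 of its 18 annotated transcripts, averaged 19.68 CPM in METTL3 KO and 11.29 in WT, and the last bin of Hbegf averaged 7.26 CPM in METTL3 KO and 40.52 in WT. The Nrg1 bin with the smallest p over WT lies in a transcript annotated with a retained intron (31916272 to 31917536) and averaged 3.023 CPM in METTL3 KO and 0.6645 in WT. Its log2 change relative to the rest of the gene was 1.06 (SE 0.31), and it did not pass the test (adjusted p 0.612, diffSpliceDGE of edgeR with Benjamini-Hochberg adjustment). Its deviation was of like size in control over WT, at 1.09 (SE 0.29), where it averaged 2.123 CPM in the controls and 0.6645 in WT and the adjusted p was 1.0.

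**Figure D4:**
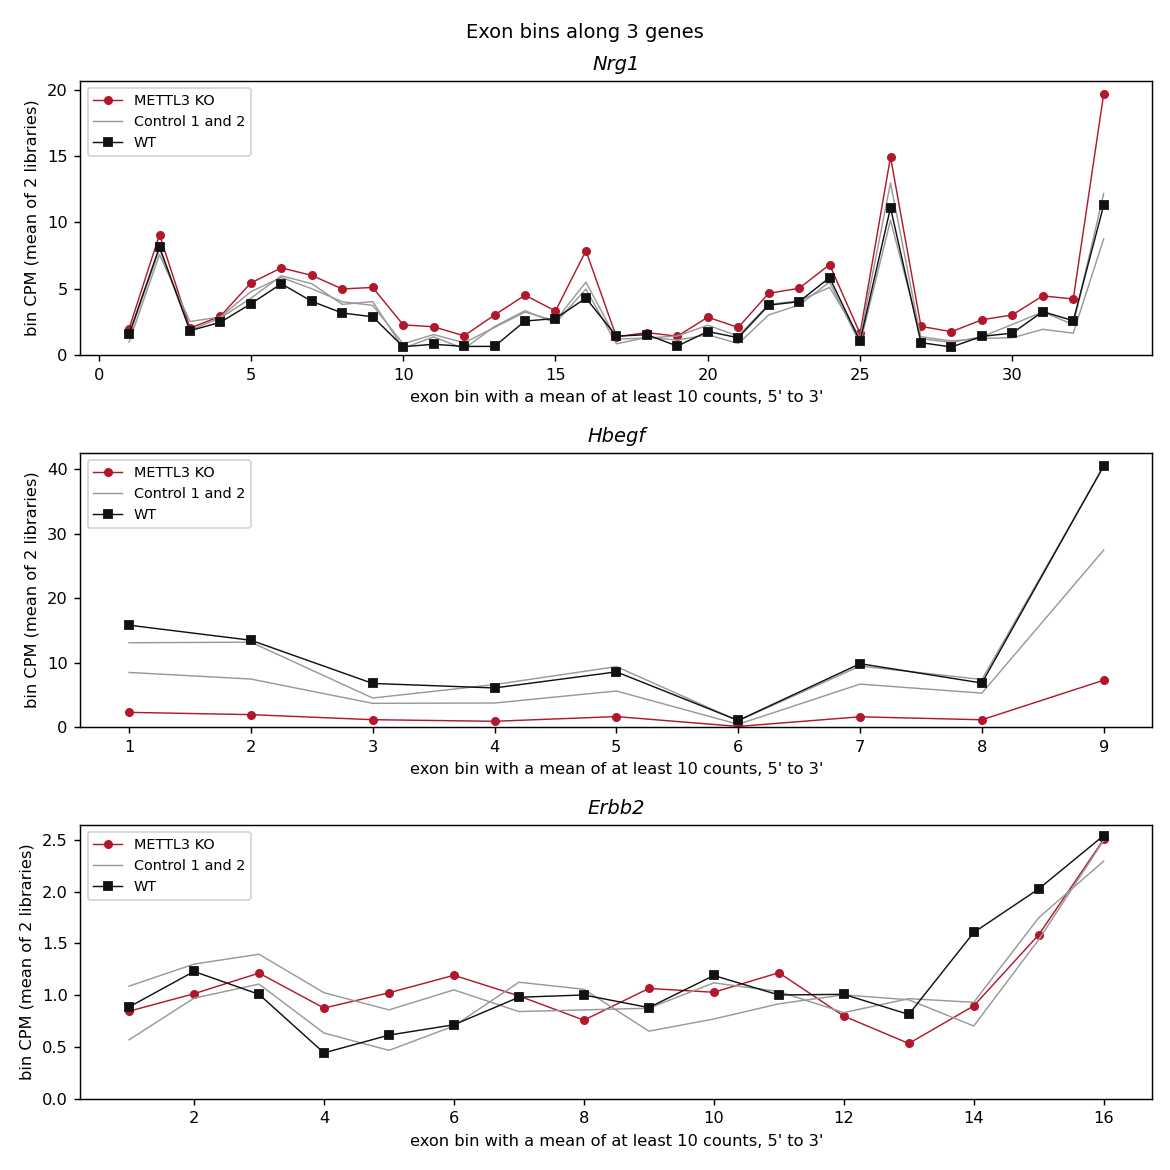
CPM (mean of 2 libraries) of each tested exon bin of Nrg1, Hbegf and Erbb2 from 5′ to 3′, in METTL3 KO (red), each control clone (grey lines) and WT (black). The METTL3 KO line lies above WT in 32 of 33 bins of Nrg1 and below it in all 9 bins of Hbegf, and crosses it in Erbb2.

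Genes whose pattern was most like a member's were ranked by Pearson's r of log2(CPM + 0.5) over the 8 group means, as a description without a test. Most like Hbegf were Def8 (r = 0.98), Elp2 (0.978) and Sgpl1 (0.976), and most like Nrg1 were Sav1 (0.987), Retreg1 (0.979) and Capn5 (0.977). Egfr was most like Litaf (0.964), Zfp874b (0.881) and Nlgn2 (0.878), and Erbb2 like Pelp1 (0.921), Hyal2 (0.904) and Ago2 (0.902). Areg was like Pim2 (0.961) and Bdkrb2 (0.96), Ereg like Jakmip2 (0.967) and Rcn1 (0.949), and Tgfa like Zfp330 (0.965), Pdk2 (0.956) and Triap1 (0.953). Erbb3 and Btc averaged under 2 CPM and were not ranked. With Spearman's rho over the 16 libraries in place of r over 8 means, 2 of the 21 genes so ranked (Nlgn2 and Def8) were again among the top 3. Points of a group share a clone, and 8 means allow high r for many genes.

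Of the rest of the family, Nrg2 averaged 9.814 CPM over the libraries (3.796 to 21.63), Nrg4 6.437 CPM and Egf 1.294 CPM. Nrg3 (0.2858 CPM), Erbb4 (0.1391 CPM) and Epgn (0.01545 CPM, at 0 in 14 of 16 libraries) were near the detection limit, so that Erbb3 was the neuregulin receptor with more than traces of RNA. Of the 3 tested of these 6 genes, 0 were called in METTL3 KO over WT, METTL3 KO over control or control over WT. The shares of all genes called there were 22.9%, 30.6% and 8.97%. Nrg2, a further neuregulin, was higher in control clone 2, at 10.03 ± 1.545 CPM and 4.167 ± 0.5248 in clone 1 (log2 change 1.27, SE 0.27, adjusted p 0.00281, edgeR's quasi-likelihood test).

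Of the genes that process ligands and receptors, 1 of 8 tested rose and 1 fell in METTL3 KO over WT, and 2 rose and 2 fell over the controls, beside 22.9% and 30.6% of all genes called. The protease gene Adam19, known to cleave neuregulin precursors, rose to 14.21 ± 1.838 CPM in METTL3 KO, against 4.067 ± 1.274 in the controls and 4.063 ± 0.4606 in WT. Its log2 change was 1.84 (SE 0.19, adjusted p 1.29e-06) over the controls and 1.78 (SE 0.25, adjusted p 0.000108) over WT, by edgeR's quasi-likelihood test. Nrd1, the gene of nardilysin, a peptidase that binds Hbegf protein and enhances its release, fell to 30.36 ± 0.9216 CPM in METTL3 KO, against 43.83 ± 1.975 in the controls and 43.61 ± 0.7359 in WT (adjusted p 0.00129 and 0.0067, edgeR). The Nrd1 call over WT was lost without METTL3 KO library 2, at an adjusted p of 0.0683 by edgeR. Over the controls, Adam17, the main sheddase of EGFR ligands, averaged 25.31 ± 0.7536 CPM in METTL3 KO and 19.25 ± 3.224 in the controls (adjusted p 0.0161, edgeR), and its call was lost without either METTL3 KO library and without the filter on low counts. Adam12, another sheddase, fell to 55.92 ± 14.41 CPM in METTL3 KO, against 152.9 ± 77.11 in the controls (adjusted p 0.000247, edgeR), and it also differed between the control clones, at a log2 change of −1.16 in clone 2 (adjusted p 0.00257, edgeR). In control over WT 1 of the 8 rose and 0 fell, beside 8.97% of all genes called. The gene that rose was Adam12 (log2 change 0.80, adjusted p 0.0297, edgeR). Its call was lost without control clone 1 library 2, control clone 2 library 2 or WT library 1.

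Among adaptors and the Ras-ERK cascade, 1 of 17 genes rose and 2 fell in METTL3 KO over WT, and 2 rose and 3 fell over the controls, at or under the shares of all genes called (22.9% and 30.6%). Gab1, a docking protein of these receptors, rose to 50.11 ± 3.024 CPM in METTL3 KO, against 31.0 ± 4.559 in the controls and 25.87 ± 7.713 in WT (adjusted p 0.00234 and 0.00199, edgeR). On exon bins its change over the controls was 0.39 and not called. Nras fell to 23.2 ± 4.209 CPM in METTL3 KO, against 38.06 ± 2.956 in the controls and 36.31 ± 0.2858 in WT (adjusted p 0.000517 and 0.00571, edgeR), and lost its call over WT without METTL3 KO library 1. Over WT Map2k2, an activator of ERK, was at −0.46 on the log2 scale (adjusted p 0.0254, edgeR), and its call was lost without the filter on low counts, on exon bins and with any of the 4 METTL3 KO and WT libraries left out. Over the controls Sos2 was higher by 0.38 on the log2 scale (adjusted p 0.0395, edgeR), at 0.15 and not called without METTL3 KO library 2. In control over WT 1 of the 17 rose and 2 fell, Ptpn11 and Map2k2, beside 8.97% of all genes called. Map2k2 lost its call without the filter or with any 1 of 5 libraries left out. Without WT library 1, 0 of the 17 were called, and without control clone 2 library 1 there were 6.

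Of the PI3K, PLC and STAT genes, 3 of 11 rose over WT and over the controls, among them Stat3 and Stat5b. Pik3cb was called lower over the controls. The shares of all genes called were 22.9% and 30.6%, and 8.97% in control over WT, given below. The Pik3cb change was −0.38 (adjusted p 0.0372, edgeR), and its call was lost with either METTL3 KO library, either library of control clone 1 or control clone 2 library 2 left out. Stat3, a transcription factor that these receptors activate, rose to 30.67 ± 6.358 CPM in METTL3 KO, against 8.337 ± 1.66 in the controls and 14.8 ± 6.113 in WT (adjusted p 3.72e-07 and 0.00203, edgeR). Stat5b rose to 24.47 ± 0.6037 CPM, against 12.9 ± 3.952 in the controls and 11.23 ± 1.044 in WT (adjusted p 7.66e-06 and 7.32e-05, edgeR), and its log2 change over WT was 1.12 over the gene body and 0.64 on exon bins. Without WT library 2 the log2 change of Stat3 over WT was 0.67, against 1.07 with it. The 4 calls of this list over the controls were 2 without METTL3 KO library 1. In control over WT 2 of the 11 rose and 1 fell, Stat3, and 0 of the 11 were called without WT library 1 and 1 without control clone 1 library 2.

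Of 12 genes that restrain or turn over the receptors, 3 rose and 1 fell in METTL3 KO over WT, and 4 rose and 1 fell over the controls, beside 22.9% and 30.6% of all genes called. Socs4, which promotes degradation of EGFR, rose to 33.91 ± 4.734 CPM in METTL3 KO, against 22.63 ± 3.184 in the controls and 16.04 ± 2.147 in WT (adjusted p 0.0192 and 0.0027, edgeR), and its call over the controls was lost without METTL3 KO library 2, control clone 1 library 1 or control clone 2 library 1. Rnf41, a ubiquitin ligase known to act on Erbb3, rose over the controls by 0.62 on the log2 scale, with an adjusted p of 0.000895 by edgeR. Also over the controls, Lrig3 rose by 0.75 and the phosphatase gene Ptprj by 0.58, and Eps15, an endocytosis adaptor, fell by 0.38 on the log2 scale (adjusted p 0.000824, 0.00487 and 0.0218, edgeR). The Ptprj call was lost without METTL3 KO library 2, and the Eps15 call without either METTL3 KO library or control clone 1 library 2. Ptprj had 45.28 and 46.33 CPM in METTL3 KO, 36.25 and 54.32 in control clone 2 and 19.41 and 21.7 in control clone 1. For Ptprj, METTL3 KO was thus above control clone 1 and within the range of control clone 2. Lrig1, an inhibitor of ErbB receptors, averaged 85.03 ± 0.6699 CPM in METTL3 KO and 122.8 ± 41.63 in WT, and its call (adjusted p 0.0384, edgeR) was lost without WT library 1 or either METTL3 KO library. Lrig3 and the ubiquitin ligase gene Cblb were also higher over WT, by 0.50 and 0.55 on the log2 scale (adjusted p 0.0494 and 0.0448, edgeR). Both calls were lost with DESeq2 and on exon bins, Cblb with any of the 4 libraries left out, and Lrig3 with any but WT library 1 and without the filter on low counts. The calls over WT numbered 4 with all libraries and 1 or 2 without METTL3 KO library 1, METTL3 KO library 2 or WT library 1, and those over the controls 5 and 2 without METTL3 KO library 2. In control over WT Lrig1 alone of the 12 was called, beside 8.97% of all genes. It was lower at −0.85 (adjusted p 0.00131, edgeR), and at −0.45 and not called without WT library 1.

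By count of genes, ERK feedback and target genes were the list with the most calls in METTL3 KO. Over WT 0 of 17 rose and 11 fell, with a median log2 change of −0.92, against 0.01 for all genes. Over the controls 1 rose and 5 fell, with a median of −0.26. The shares of all genes called were 22.9% and 30.6%. Over the controls other lists had a larger share called. Of the processing genes 2 of 8 rose and 2 fell, and of the PI3K, PLC and STAT genes 3 of 11 rose and 1 fell. Of the genes that restrain or turn over the receptors 4 of 12 rose and 1 fell. Dusp5, a phosphatase of nuclear ERK, fell to 6.193 ± 0.9712 CPM in METTL3 KO, against 25.44 ± 1.601 in the controls and 26.87 ± 9.781 in WT. Its log2 change was −2.01 (SE 0.20, adjusted p 9.14e-07) over the controls and −2.07 (SE 0.23, adjusted p 1.25e-05) over WT, by edgeR's quasi-likelihood test. Dusp4, of the same family, fell to 10.73 ± 1.187 CPM, against 31.37 ± 7.406 in the controls and 42.25 ± 24.62 in WT (adjusted p 0.000173 and 0.000117, edgeR), and its log2 change over WT was −1.94 with all libraries and −1.20 without WT library 1. Fosl1, an AP-1 subunit, fell over WT to 13.95 ± 0.3369 CPM in METTL3 KO, against 33.93 ± 15.25 in WT, a log2 change of −1.26 (adjusted p 0.00084, edgeR), at −0.73 and still called without WT library 1. The ETS factors Etv4 and Etv5 also fell against both references, Etv5 to 22.34 ± 2.838 CPM, against 40.69 ± 5.249 in the controls and 57.19 ± 27.28 in WT (adjusted p 0.00377 and 0.000604, edgeR). Etv4 lost its call over WT without WT library 1, where Etv5 stood at −0.75 against −1.33 with it, and Etv5 lost its call over the controls without METTL3 KO library 1. Phlda1 fell over the controls by 0.44 on the log2 scale (adjusted p 0.0476, edgeR). Fos, a low immediate-early gene, averaged 1.629 ± 0.2381 CPM in METTL3 KO and 0.7514 ± 0.2274 in the controls (adjusted p 0.0463, edgeR). The Phlda1 and Fos calls were each lost with DESeq2 and with either METTL3 KO library left out.

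Over WT 5 of the ERK genes were called without WT library 1 and 7 without METTL3 KO library 2. Over the controls 3 were called without METTL3 KO library 1. WT library 1 was above WT library 2 for 16 of the 17, with a median ratio of 1.93, so the WT samples differed in the ERK genes as in the ligands. In control over WT 0 of 17 rose and 5 fell, beside 8.97% of all genes called, or 5.78% lower. The median of the 17 was −0.63, against −0.002 for all genes. Among the 5 was Ier3, which averaged 13.56 ± 5.656 CPM in the controls and 83.79 ± 75.05 in WT (adjusted p 6.68e-05, edgeR). Its log2 change was −2.68 with all libraries and −1.25 without WT library 1. The others were Dusp6, Spred3, Fosl1 and Myc, at −0.67 to −1.19. In that comparison 1 of the 17 was called without WT library 1, 3 without control clone 1 library 2, 10 without control clone 2 library 1 and 11 without WT library 2. In the comparisons of RBM45 KO, KO rescue and control over clones, 0 genes of the 6 lists were called by edgeR.

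**Figure D5:**
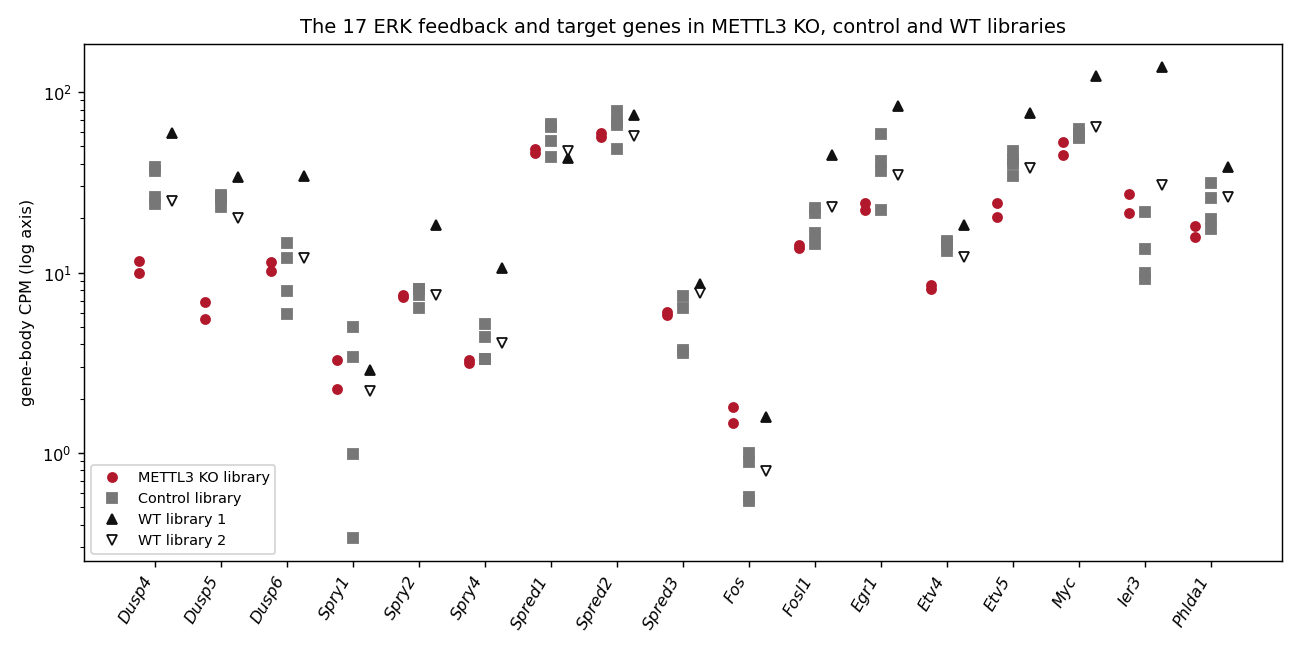
Gene-body CPM (log axis) of the 17 ERK feedback and target genes in METTL3 KO (red circles), control (grey squares) and WT libraries (black triangles, library 1 filled). For Dusp5 both METTL3 KO points lie below all control and WT points, with means of 6.193 CPM in METTL3 KO, 25.44 in the controls and 26.87 in WT, and WT library 1 is above WT library 2 for 16 of the 17.

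Between clones of 1 genotype, 17 genes of the 6 lists were called for the control pair, 13 for the RBM45 KO pair and 2 for the KO rescue pair (edgeR's quasi-likelihood test), beside 19.6%, 14.1% and 2.29% of all genes called. The lists held 3, 8, 17, 11, 12 and 17 tested genes. Spry1, a feedback inhibitor of receptor tyrosine kinases, was lower in clone 2 of the controls, at 0.6661 ± 0.4624 CPM and 4.184 ± 1.123 in clone 1 (adjusted p 4.93e-05, edgeR), and in clone 2 of RBM45 KO, at 2.414 ± 0.3343 CPM and 6.099 ± 0.2693 in clone 1 (adjusted p 0.00416, edgeR). The second call was lost without RBM45 KO clone 2 library 1. Ptprj was higher in clone 2 in both pairs, at 45.28 ± 12.78 CPM and 20.56 ± 1.615 in control clone 1 (adjusted p 0.000114, edgeR), and at 52.56 ± 3.743 CPM and 19.36 ± 1.791 in RBM45 KO clone 1 (adjusted p 1.61e-05, edgeR). Adam19 was higher in RBM45 KO clone 2, at 3.2 ± 0.6159 CPM and 0.6887 ± 0.3663 in clone 1 (adjusted p 0.000788, edgeR). In KO rescue Egr1 was lower and Stat5b higher in clone 2 (adjusted p 0.0386 and 0.011, edgeR). The 17 calls of the controls were 10 without control clone 1 library 2, the 13 of RBM45 KO were 7 without clone 1 library 1, 8 without clone 2 library 1 and 3 without clone 2 library 2, and the 2 of KO rescue were 0 with any library left out.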

How the data were processed

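The authors deposited raw fragment counts per gene body and per exon bin. Per the file headers, featureCounts 1.6.3 made them with a stranded setting from flattened Ensembl 98 features on GRCm38. An overlap of 0.1 of the fragment sufficed, so a fragment over 2 bins counted in each. Per the labels' protocols the kit leaves strand unmarked, so a gene and its antisense partner cannot be told apart. The submitters' processing notes name HISAT2 2.1.0, Subread 1.6.3, featureCounts 1.6.5, DESeq2 1.32.0 and R 3.6.0, with no role given. The intron table was not used here.

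Columns were joined to samples by name. The 4 control columns match no label and were taken as the controls because all others match other groups. The labels do not say that libraries came from separate cultures, so the p-values cover the spread between these samples alone, which may be technical. Symbols and transcripts come from GENCODE release 21.

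Gene counts were tested with edgeR 4.0.16 (R 4.3.3) by its quasi-likelihood test, after TMM scaling, filterByExpr and Benjamini-Hochberg adjustment over all genes, called at 0.05. The 16 libraries in 8 groups were fitted together (16223 genes, 8 residual degrees of freedom). RBM45 comparisons used the summed counts of 6 clones (16867 genes, 3 degrees of freedom). Exon bins were tested with diffSpliceDGE relative to the rest of their gene. The fits were also run on simulated counts with the same spread for every gene and the same mean for clones of a genotype. The clones here differed within a genotype, so that run does not show how the fits act on them. Alternatives were RLE size factors, no filter, DESeq2 1.42.0, exon bins added together, a replicate block and each library or clone left out. Python 3.11.15 with pandas 2.3.3, numpy 2.4.6, scipy 1.17.1 and matplotlib 3.10.9 did the rest, and limma 3.58.1 was loaded by edgeR.

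The members and the lists were chosen with earlier results of these data known. Named genes are all 9 members, Rbm45 and Mettl3, up to 4 called genes of a list with the smallest adjusted p (all where 5 or fewer were called), and the 3 genes most like each member averaging at least 2 CPM. For comparisons between clones of 1 genotype only some of these are named, chosen after their values were seen. Nrd1 is the symbol of Nrdc in that release. Some genes that this rule picks are not reported here.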

Additional observations from a re-analysis of the deposited data

Results flagged for a closer look

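Egfr in control clone 2 library 1, at 10.23 CPM, lay apart from the other 3 control libraries, which had 13.93, 14 and 14.65 CPM. Its gap to the nearest of them was 0.837 of the range of the 4. It was the only one marked among the 27 sets of 4 libraries looked at, and chance marks about 1 in 20 such sets.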

How the results depend on the processing

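Of the 396 member log2 changes recomputed with all libraries kept, 356 were counted as unchanged. These stayed called in the same direction, or stayed uncalled and moved by no more than their SE. Some small uncalled changes among them took the other sign, such as Erbb3 in KO rescue over control, at 0.054 and at −0.131 with 12 libraries. The number of members called moved by over 1.5 times in the following cases. It was 4 between the control clones and 5 between the RBM45 KO clones without the filter on low counts, and 1 between the RBM45 KO clones on exon bins added together. With the 12 libraries in place of the 6 clones it was 3 in RBM45 KO over control, 3 in KO rescue over RBM45 KO and 4 in KO rescue over control, where DESeq2 gave 1. Genes called in the pathway lists with 12 libraries were 9, 20 and 28 in those 3 comparisons, which treats libraries of 1 clone as replicates. Between the KO rescue clones they were 5 without the filter and 1 with DESeq2 or on exon bins, against 2. Over all genes, calls were 632 without the filter against 371 between the KO rescue clones, and with 12 libraries 2565, 3058 and 5621 against 0 in the comparisons over clones. With Spearman's rho, 2 of the 21 genes most like a member stayed.

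With 1 library left out, members called ranged from 3 to 4 in METTL3 KO over WT, 0 to 4 in control over WT, 4 to 4 in METTL3 KO over control, 2 to 3 between the control clones, and 1 to 2 in each of the RBM45 KO and KO rescue pairs. List genes called ranged from 14 to 24, 1 to 22, 16 to 26, 10 to 15, 3 to 11 and 0 to 0 in the same order. With 1 clone left out, 0 to 0 members, list genes and bins were called in the comparisons over clones. The lone sample of a group was then assumed to vary like the other groups. Areg in control over WT ran from −3.414 without WT library 2 to 0.301, reversed, without WT library 1. In the comparisons over clones, where edgeR on clone sums called no member, several fitted changes took the other sign when 1 clone was left out, among them Areg in KO rescue over RBM45 KO (3.10), Ereg (−8.14) and Tgfa (0.056) in RBM45 KO over control, and Egfr in KO rescue over RBM45 KO (−0.70).

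Same-numbered libraries deviated together with correlations of 0.0492 to 0.208. Of these 6, 4 were over 0.1 and 2 were not, and the labels give the numbers no shared source, so the numbers were not taken as pairs. With a replicate block, 4 members and 27 list genes were called in METTL3 KO over WT, and 4 members, Nrg1 among them, and 17 list genes between the RBM45 KO clones, and over all genes 4770 against 3722 and 2895 against 2294. With the clone number as a block, 0 members and 0 list genes were called in the 3 comparisons over clones. Low counts of Erbb3, Areg, Ereg and Btc limit what depth can show.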

Other observations

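GGACT, a common form of the letters in which m6A is written, was counted in the longest coding transcript of each gene. It occurred 2.53 times per kb in Hbegf, which was lower in METTL3 KO, 0.923 in Nrg1, which was higher, 2.47 in Areg, 1.5 in Erbb3, 1.2 in Erbb2, 1.18 in Egfr, 0.884 in Tgfa, 0.695 in Btc and 0.242 in Ereg. The median over 12839 tested coding genes was 1.04 per kb, with quartiles of 0.629 and 1.51. The letters are not a measured site, and their part in any difference was not tested.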
